A study of Homo sapiens with 4 samples.

Results

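The 32 genes of glycolysis and of glucose and lactate transport were examined in the established human colorectal carcinoma line HCT116 after the piperine derivative HJ-4 or its vehicle. They were taken by name from the table of 20263 Ensembl gene IDs. They run from the glucose transporters through the enzymes that turn glucose into lactate to the lactate transporters. PDK1, a kinase of pyruvate dehydrogenase, is also among them. All 32 matched a symbol of GENCODE v44 and all 32 were among the 14044 genes with enough counts to be tested. Control cells of wild-type genotype received DMSO at 0.1%, and treated cells of the same line received HJ-4 at 32 µM, both for 24 h, with 2 libraries per group. The legend of the study's transcriptome figure gives a lower dose than the 32 µM of its methods. HJ-4 is an amide made from piperine, the pungent alkaloid of black pepper. The study's methods describe biological triplicates, but the labels do not say whether the 2 libraries of a group are separate cultures. The p-values thus rest on a spread between libraries that may be technical.

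The libraries held 29769568 to 34359889 counts. Of the 9 colon epithelial markers checked, 6 were at 1 CPM or more in every library, with a summed level of 3981 to 4474 CPM, whereas KRT20, CDX1 and VIL1 were below that. Of the 5 leukocyte markers none reached 1 CPM (summed level 0.366 to 0.599 CPM), of the 3 endothelial markers none reached it in every library (0.731 to 1.44 CPM), of the 3 erythroid markers 2 did (4.47 to 5.91 CPM) and of the 5 fibroblast markers 1 did (59.0 to 63.1 CPM). Levels are CPM, counts relative to the library total after TMM scaling, which sets libraries to a common scale. Fold changes are HJ-4 over DMSO and are given ± their standard error (n = 2 libraries per group), with calls at an adjusted p under 0.05 in edgeR's quasi-likelihood test.

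Glycolysis splits glucose into pyruvate in the cytosol, spending ATP in its upper steps and regaining it in its lower steps. Lactate dehydrogenase then turns pyruvate into lactate, which regenerates NAD+ and is exported through monocarboxylate transporters. Tumor cells, colorectal carcinoma cells among them, are known for high glucose uptake and lactate output even with oxygen present. Most steps can be run by several isoenzymes from separate genes, and many of these genes are targets of the hypoxia-inducible factor HIF-1 and of MYC.

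Most glycolytic genes were at lower levels in the HJ-4 libraries, by modest amounts, and none passed the adjusted threshold of edgeR. Of the 32 genes, 25 had a negative log2 fold change, against 49.3% of all genes tested. Their median log2 fold change was -0.27, while that of all genes tested was 0.004. Both HJ-4 libraries lay below both DMSO libraries for 22 of the 32, where 25.6% of all genes tested did so, and above them for 5, where 25.2% did. At an unadjusted p under 0.05, 18 of the 32 were lower, against 7.93% of all genes tested, and 2 were higher, against another 7.93%. With Benjamini-Hochberg adjustment over all genes edgeR called 0 of the 32, and 0.0498% of all genes tested in either direction. The smallest adjusted p was 0.119. DESeq2's Wald test called 11 lower and 0 higher, where it called 1.76% of all genes lower and 2.33% higher. The 11 were SLC2A1, GPI, PFKFB4, TPI1, GAPDH, PGK1, PGAM1, ENO1, ENO2, LDHA and PDK1. Limma-voom called 0 of the 32, with 0.0142% of all genes lower and 0.0498% higher. The count of lower genes at an unadjusted p under 0.05 was 14 without DMSO replicate 1 and 17 without DMSO replicate 2, and among treated libraries it was 6 when replicate 1 and 13 when replicate 2 was left out. In bulk RNA, fewer cells of one kind and less RNA per cell cannot be told apart.

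The summed level of the 32 genes was below that of both controls in each treated library. It was 33243 and 29910.2 CPM with DMSO and 23063 and 25211 CPM with HJ-4, so that the treated mean was 76.4% of the control mean. GAPDH alone made up 44.4% to 46.3% of this sum in every library. Without GAPDH the treated mean was 76.7% of the control mean. In every part of the pathway but the phosphoglucomutase step, the summed level per length was lower in both treated libraries than in both controls.

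**Figure D1:**
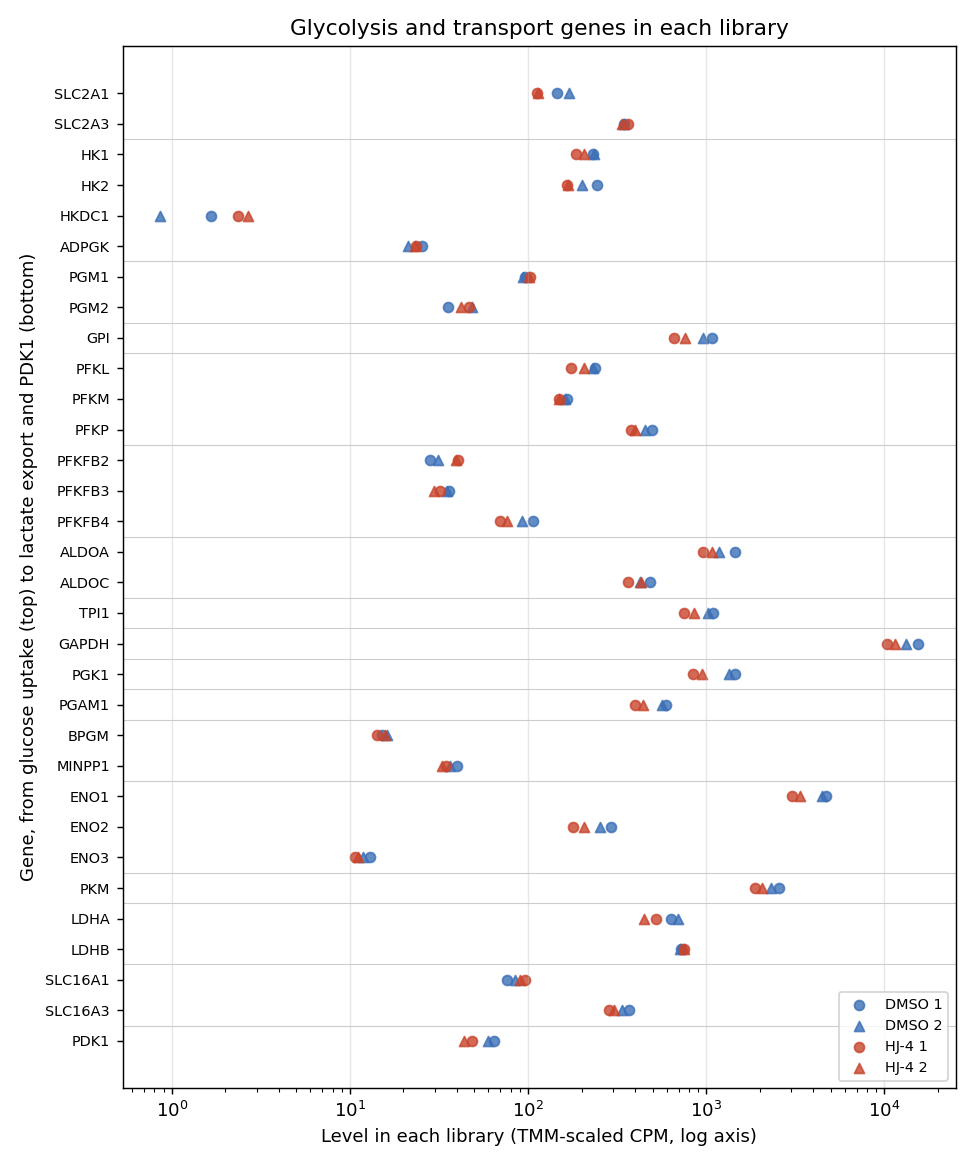
Level of each of the 32 genes in each library (TMM-scaled CPM, log axis), in pathway order from glucose uptake at the top. Blue points are DMSO libraries and red points HJ-4 libraries, with circles for replicate 1 and triangles for replicate 2, and both red points lie left of both blue points for 22 genes.

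At the entry into the cell, the gene of the basal glucose transporter GLUT1 was at lower levels in both treated libraries, whereas the values of GLUT3 overlapped. SLC2A1, which encodes GLUT1, was at 145 and 170.1 CPM with DMSO and at 112 and 114 CPM with HJ-4. The treated libraries lay close together and below both controls (log2 fold change of -0.48 ± 0.105 with adjusted p = 0.184 in edgeR). SLC2A3, the gene of the high-affinity transporter GLUT3, was at 344 and 344 CPM with DMSO and at 363 and 335 CPM with HJ-4, with the groups overlapping (log2 fold change of 0.02 ± 0.080 with adjusted p = 0.92 in edgeR). It may share reads with its near-identical neighbor SLC2A14. In TPM, which scales levels to exon length and is used here to compare genes with each other, SLC2A3 was the more abundant of the 2 transporters. SLC2A1 made up 31.6% and 35.2% of their summed TPM with DMSO and 25.3% and 27.2% with HJ-4. SLC2A1 lies on chromosome 1 from 42925353 to 42958893 on the minus strand of GRCh38.

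Glucose is trapped in the cell by phosphorylation, and the 2 main hexokinase genes were at lower levels with HJ-4. HK1, the hexokinase found in most tissues, was at 233 and 234 CPM with DMSO and 187 and 206 CPM with HJ-4 (log2 fold change -0.25, unadjusted p = 0.0347 in edgeR). HK2, the hexokinase that many tumors express strongly, was at 244 and 200.2 CPM with DMSO and 165 and 168 CPM with HJ-4 (log2 fold change -0.41, unadjusted p = 0.0168 in edgeR). The controls differed more for HK2 than for HK1. ADPGK, which phosphorylates glucose with ADP, was at 25.4 and 21.3 CPM with DMSO and 23.5 and 23.2 CPM with HJ-4, and both treated values lay between the controls. HKDC1, a hexokinase-like gene, had the largest fold change of the 32 in size and the lowest level. Its counts were 52 and 26 with DMSO and 80 and 89 with HJ-4, or 1.66 and 0.864 CPM and 2.35 and 2.67 CPM (log2 fold change of 0.99 ± 0.356 with adjusted p = 0.297 in edgeR). The DMSO libraries differed 2-fold in counts for this gene, and its share of the TPM of the 4 phosphorylating enzymes was 0.492% and 0.286% with DMSO and 0.934% and 1.00% with HJ-4. The phosphoglucomutase genes PGM1 and PGM2, which link glucose phosphates to glycogen, formed the one step whose summed TPM was higher with HJ-4, at 113 and 122 with DMSO and 130.4 and 123 with HJ-4. PGM1 was at 96.4 and 94.1 CPM with DMSO and 102 and 102 CPM with HJ-4, and PGM2 at 35.4 and 48.3 CPM and 46.8 and 42.2 CPM, which overlapped.

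In the upper pathway, GPI, which turns glucose-6-phosphate into fructose-6-phosphate, was 4th of the 32 by unadjusted p. Its level was 1079 and 966 CPM with DMSO and 657 and 758 CPM with HJ-4 (log2 fold change of -0.53 ± 0.108 with adjusted p = 0.168 in edgeR). Of the 3 phosphofructokinase genes, whose product commits sugar to glycolysis, the platelet form PFKP was the most abundant per length, with 56.1% and 54.8% of their summed TPM in the controls. PFKP was at 494 and 452 CPM with DMSO and 379 and 397 CPM with HJ-4 (log2 fold change -0.29, unadjusted p = 0.0195 in edgeR). The liver form PFKL was at 239 and 230.3 CPM and 174 and 206 CPM (log2 fold change -0.30), and the muscle form PFKM at 166 and 161 CPM and 149.5 and 149 CPM (log2 fold change -0.13). All 3 had both treated libraries below both controls, though the gap was small for PFKM, whose exons overlap those of SENP1 on the opposite strand over 7.12% of their length.

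The enzymes that make and remove fructose-2,6-bisphosphate, an activator of phosphofructokinase, had fold changes of both signs. PFKFB2, a form known from heart and controlled by insulin signaling, was at 28.3 and 31.2 CPM with DMSO and 40.3 and 39.2 CPM with HJ-4. It was the one of the 3 with both treated libraries above both controls (log2 fold change of 0.42 ± 0.101 with adjusted p = 0.204 in edgeR). PFKFB2 overlaps the more abundant YOD1 on the opposite strand over 3.10% of its exons, so part of its counts may belong to YOD1. PFKFB2 had 888 to 1374 counts per library, and YOD1 up to 5066. PFKFB4 was the most abundant of the 3 per length, at 107 and 92.2 CPM with DMSO and 69.3 and 76.3 CPM with HJ-4 (log2 fold change of -0.45 ± 0.110 with adjusted p = 0.207 in edgeR). PFKFB3, a hypoxia-inducible form with high kinase activity, was at 36.1 and 35.3 CPM and 32.1 and 29.8 CPM (log2 fold change -0.21, unadjusted p = 0.085 in edgeR). The PFKFB2 share of the summed TPM of the 3 was 10.6% and 12.8% with DMSO and 19.3% and 18.2% with HJ-4, and that of PFKFB4 was 66.8% and 63.1% and 55.2% and 58.9%.

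Aldolase cleaves the 6-carbon sugar into triose phosphates, which triosephosphate isomerase interconverts. ALDOA, the main aldolase gene outside liver and brain, was at 1450.5 and 1182 CPM with DMSO and 963 and 1073 CPM with HJ-4 (log2 fold change -0.37, unadjusted p = 0.0329 in edgeR). Of its exons, 42.8% are shared with a longer gene model on the same strand that is not used here, and reads from there cannot be told apart. The brain form ALDOC, at 484 and 425 CPM with DMSO and 366 and 430.0 CPM with HJ-4, overlapped between the groups since the second HJ-4 library lay within the control range. TPI1 was at 1094 and 1026 CPM with DMSO and 751 and 856 CPM with HJ-4 (log2 fold change of -0.40 ± 0.096 with adjusted p = 0.204 in edgeR).

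**Figure D2:**
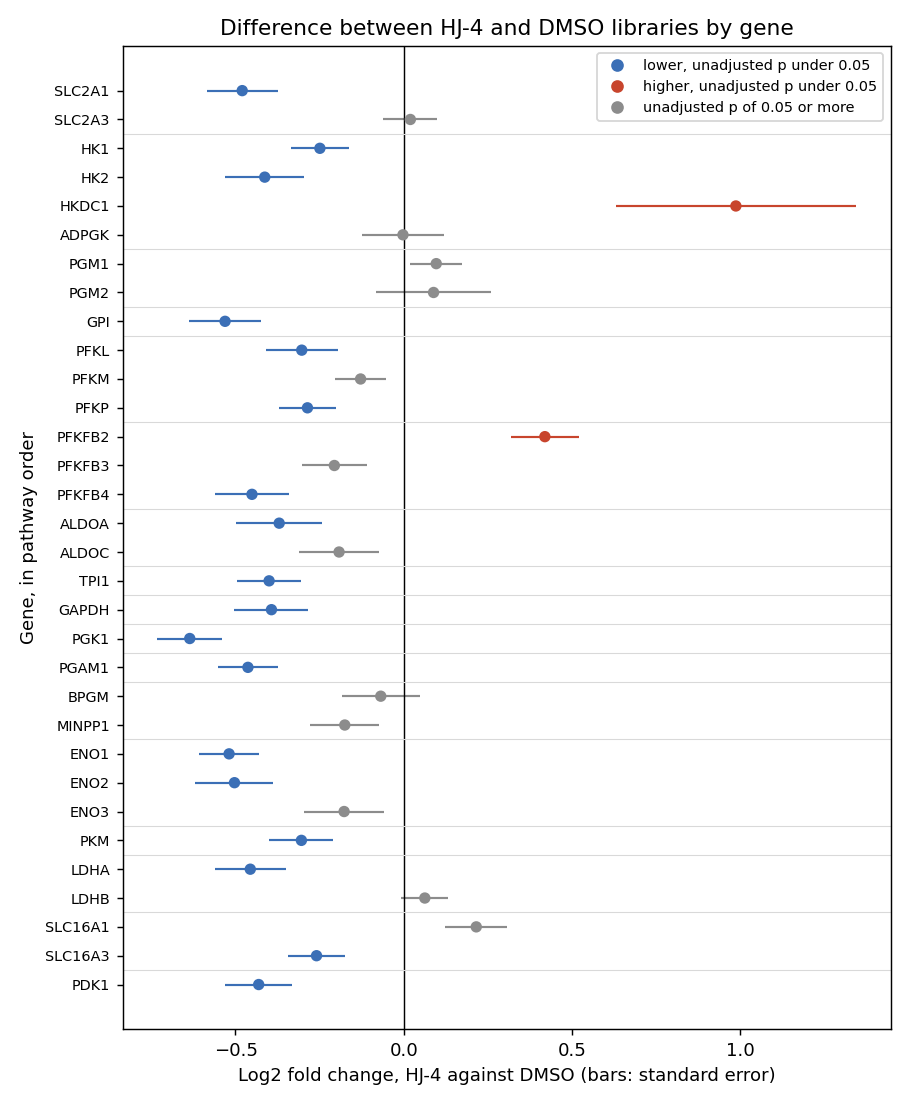
Log2 fold change of each of the 32 genes (HJ-4 over DMSO) in pathway order, with standard errors from edgeR as bars. Blue points are the 18 genes lower and red points the 2 genes higher at an unadjusted p under 0.05, and the values run from -0.64 for PGK1 to 0.99 for HKDC1.

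The lower pathway, in which ATP and NADH are gained, held the 3 genes of smallest p. GAPDH, whose product oxidizes glyceraldehyde-3-phosphate and whose transcript and protein are widely used as a reference, was at 15395 and 13294 CPM with DMSO and 10386 and 11456 CPM with HJ-4. The treated mean was 76.1% of the control mean (log2 fold change of -0.39 ± 0.110 with adjusted p = 0.237 in edgeR, and adjusted p = 0.045 from DESeq2). GENCODE v44 names 65 pseudogenes after GAPDH, and none of them is an ID of the table used here, so where their reads were counted is not known. PGK1, which makes the first ATP of the pathway, was at 1447 and 1339 CPM with DMSO and 842 and 952 CPM with HJ-4. It had the smallest p of the 32 and ranked 139th of the 14044 genes tested (log2 fold change of -0.64 ± 0.096 with adjusted p = 0.119 in edgeR, and adjusted p = 6.8e-06 from DESeq2). PGAM1, which moves the phosphate from carbon 3 to carbon 2, was at 596 and 565 CPM with DMSO and 398 and 444 CPM with HJ-4 (log2 fold change of -0.46 ± 0.089 with adjusted p = 0.164 in edgeR). PGK1 lies on chromosome X from 77910739 to 78129295 on the plus strand of GRCh38, PGAM1 on chromosome 10 from 97426191 to 97433444 on the plus strand and GAPDH on chromosome 12 from 6534512 to 6538374 on the plus strand.

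For the side path through 2,3-bisphosphoglycerate, the treated mean of the summed TPM was 91.9% of the control mean. BPGM, the mutase known for making 2,3-bisphosphoglycerate in red cells, was at 15.2 and 16.1 CPM with DMSO and 14.2 and 15.7 CPM with HJ-4. These values overlapped. MINPP1, a phosphatase that can remove 2,3-bisphosphoglycerate, was at 40.003 and 36.4 CPM and 34.6 and 33.1 CPM (log2 fold change -0.17, unadjusted p = 0.146 in edgeR). Both of its treated libraries lay below both controls.

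All 3 enolase genes had lower levels in both treated libraries. ENO1, the ubiquitous alpha-enolase and the source of 92.7% and 93.3% of enolase TPM in the controls, was at 4717 and 4483 CPM with DMSO and 3035 and 3385 CPM with HJ-4 (log2 fold change of -0.52 ± 0.090 with adjusted p = 0.147 in edgeR, and adjusted p = 0.00012 from DESeq2). ENO2, the neuronal form that many tumor lines also express, was at 292 and 253 CPM with DMSO and 179 and 206 CPM with HJ-4 (log2 fold change of -0.50 ± 0.116 with adjusted p = 0.195 in edgeR). Muscle ENO3 was at 12.9 and 11.8 CPM and 10.7 and 11.2 CPM (log2 fold change -0.18). It overlaps the far more abundant PFN1 on the opposite strand over 2.59% of its exons, so part of its counts may belong to PFN1. PKM, the pyruvate kinase gene, was at 2557 and 2308 CPM with DMSO and 1876 and 2065 CPM with HJ-4 (log2 fold change -0.30, unadjusted p = 0.0239 in edgeR). Its splice forms M1 and M2 cannot be told apart in counts per gene. ENO1 lies on chromosome 1 from 8861000 to 8879190 on the minus strand of GRCh38.

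At the last enzyme, the gene of lactate dehydrogenase subunit A was at lower levels in both treated libraries and that of subunit B was not. Whether the fold changes of such gene pairs differ from each other was not tested. LDHA, whose subunit favors the reduction of pyruvate to lactate, was at 636 and 696 CPM with DMSO and 520.2 and 450.0 CPM with HJ-4 (log2 fold change of -0.46 ± 0.105 with adjusted p = 0.194 in edgeR). LDHB, whose subunit favors the reverse reaction, was at 726 and 714 CPM with DMSO and 755 and 749.6 CPM with HJ-4, slightly above the controls in both libraries (log2 fold change of 0.06 ± 0.070 with adjusted p = 0.682 in edgeR). Of its exons, 33.4% are shared with another gene model on the same strand that is not used here. Per length LDHB was the more abundant, at 824 and 804 TPM in the controls against 357 and 388 TPM for LDHA. The LDHA share of their summed TPM was 30.2% and 32.5% with DMSO and 25.4% and 22.9% with HJ-4. The summed TPM itself was close in the groups, at 1181 and 1191 with DMSO and 1171 and 1100.0 with HJ-4. LDHA lies on chromosome 11 from 18394560 to 18408425 on the plus strand of GRCh38 and LDHB on chromosome 12 from 21635342 to 21757857 on the minus strand.

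The lactate transporter genes had fold changes of opposite sign. SLC16A3, which encodes MCT4, the exporter of highly glycolytic cells, was at 367 and 337 CPM with DMSO and 285 and 303 CPM with HJ-4 (log2 fold change -0.26, unadjusted p = 0.029 in edgeR), and 5.22% of its exons overlap CSNK1D on the opposite strand. SLC16A1, which encodes the widely expressed MCT1, was at 76.2 and 84.0 CPM with DMSO and 95.8 and 90.3 CPM with HJ-4, above both controls in each treated library (log2 fold change 0.22, unadjusted p = 0.0649 in edgeR). The SLC16A1 share of their summed TPM was 23.2% and 26.6% with DMSO and 32.8% and 30.3% with HJ-4. PDK1, a kinase that switches off pyruvate dehydrogenase, was at 64.0 and 59.8 CPM with DMSO and 48.2 and 43.6 CPM with HJ-4 (log2 fold change of -0.43 ± 0.099 with adjusted p = 0.195 in edgeR).

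**Figure D3:**
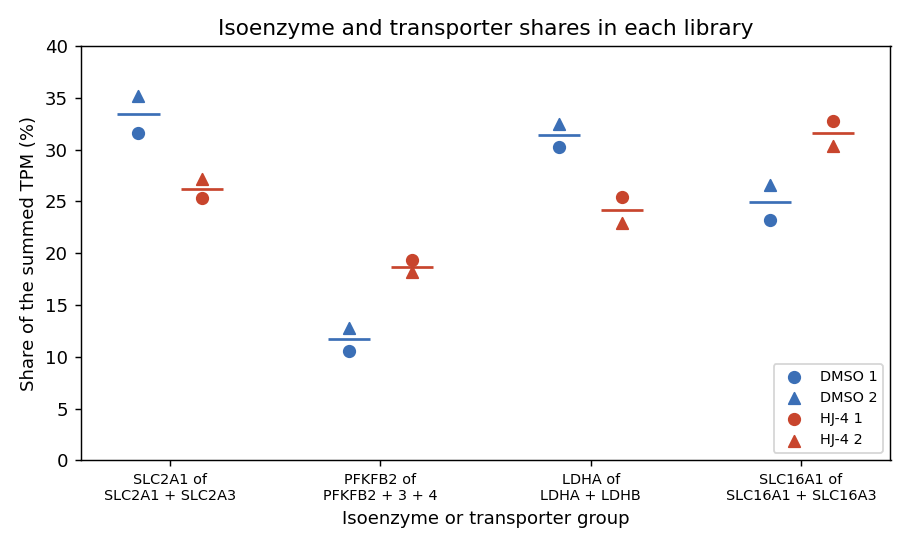
Share of one gene in the summed TPM of its group, in percent, in each library for glucose uptake, the fructose-2,6-bisphosphate enzymes, lactate dehydrogenase and lactate transport. Points are libraries and horizontal lines group means, and in each of these 4 groups, chosen after their values were seen, the DMSO and HJ-4 libraries do not overlap.

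Shares between isoenzymes were compared without a test, since 2 libraries against 2 cannot give a permutation p below 0.33. Outside the 4 groups plotted, the group means of the shares of ALDOA, HK2, PFKP and ENO1 differed by less, with the libraries of the groups apart for ALDOA and HK2 and overlapping for PFKP and ENO1. ALDOA held 67.1% and 65.5% of aldolase TPM with DMSO and 64.2% and 63.0% with HJ-4. HK2 held 51.7% and 47.2% of the TPM of the phosphorylating enzymes with DMSO and 46.9% and 45.2% with HJ-4. PFKP held 56.1% and 54.8% of phosphofructokinase TPM with DMSO and 54.8% and 53.9% with HJ-4, and ENO1 held 92.9% and 92.8% of enolase TPM with HJ-4. By step, the treated mean of the summed TPM was lowest against the control mean for phosphoglycerate kinase (65.1%), glucose-6-phosphate isomerase (70.0%) and enolase (70.7%). It was 84.8% for phosphofructokinase, 81.9% for pyruvate kinase, 95.7% for lactate dehydrogenase and 92.6% for glucose uptake.

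The genes were also described by their level. Of the 17 genes at 100 TPM or more in the controls, a limit set after the values were seen, 15 were negative (median log2 fold change -0.39). Of the 15 genes below it, 10 were negative (median -0.13), and no test was made of this split. Over all 1248 tested genes of at least 100 TPM, 45.7% had a negative log2 fold change and the median was 0.02. From uptake to triosephosphate isomerase 13 of 18 were negative (median -0.23), and from GAPDH on 12 of 14 were (median -0.35). The libraries of a group also differed in this pathway. DMSO replicate 1 was above DMSO replicate 2 for 24 of the 32 genes, with a median of -0.096 for replicate 2 minus replicate 1 on the log2 CPM scale. HJ-4 replicate 2 was above HJ-4 replicate 1 for 20 of the 32, by a median of 0.08. For 30 of the 32 genes the libraries of each group lay within 0.3 of each other on that scale.

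Promoter sequences of 29 of the 32 genes, all but SLC2A3, PFKFB2 and SLC16A1, were taken from RefSeq (GRCh38.p14), each spanning 250 bases before and 50 after the start site. They were searched on both strands for ACGTG or GCGTG, the core letters that HIF-1 is known to bind, and for CACGTG, the E-box that MYC and the glucose sensor MondoA are known to bind, which contains ACGTG on each strand. ACGTG or GCGTG was found in 20 of the 29 (69.0%), against 62.1% of 11119 promoters of genes tested and 48.4% of all 27303 promoters. Of the 22 promoters of genes with both treated libraries below both controls, 14 held it, as did 6 of the other 7. CACGTG was found in 4 of the 29 (13.8%), against 9.9% of promoters of genes tested. The 250 bases before the start site are shown for PGK1 and ENO1, the genes of smallest p, and for LDHA and LDHB, the subunits of lactate dehydrogenase, with each ACGTG or GCGTG match on either strand in capitals.
PGK1 (chrX:78103998-78104247, plus strand): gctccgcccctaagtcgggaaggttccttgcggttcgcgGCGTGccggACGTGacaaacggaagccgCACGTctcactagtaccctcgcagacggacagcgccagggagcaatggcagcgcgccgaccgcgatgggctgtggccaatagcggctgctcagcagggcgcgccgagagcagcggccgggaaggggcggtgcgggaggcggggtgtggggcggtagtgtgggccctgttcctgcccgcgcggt
ENO1 (chr1:8878687-8878936, minus strand): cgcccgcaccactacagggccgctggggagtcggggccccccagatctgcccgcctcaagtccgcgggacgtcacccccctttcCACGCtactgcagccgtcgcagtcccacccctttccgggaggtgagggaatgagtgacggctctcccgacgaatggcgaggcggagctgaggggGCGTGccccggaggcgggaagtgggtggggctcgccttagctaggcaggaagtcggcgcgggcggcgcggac
LDHA (chr11:18394313-18394562, plus strand): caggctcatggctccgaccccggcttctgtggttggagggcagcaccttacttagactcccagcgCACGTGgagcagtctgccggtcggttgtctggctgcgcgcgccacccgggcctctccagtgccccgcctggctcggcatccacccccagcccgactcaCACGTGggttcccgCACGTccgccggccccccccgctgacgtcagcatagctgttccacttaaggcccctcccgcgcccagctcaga
LDHB (chr12:21657843-21658092, minus strand): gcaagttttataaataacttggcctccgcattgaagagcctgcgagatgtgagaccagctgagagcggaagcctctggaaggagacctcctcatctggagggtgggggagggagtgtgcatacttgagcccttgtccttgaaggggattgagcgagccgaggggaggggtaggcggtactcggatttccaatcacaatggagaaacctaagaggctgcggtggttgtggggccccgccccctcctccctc
The PGK1 stretch held 3 matches, that of ENO1 2, and that of LDHA 5, in which each of its 2 CACGTG sites counts on both strands. The LDHB stretch held 0, and these letters occur after its start site. A single RefSeq start site was used per gene. The GENCODE spans of PGK1, ENO1 and LDHB given above begin upstream of the stretches shown here. A match of so few letters is a description of the sequence and not evidence of binding.

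Neighboring pathways were described with lists written with earlier results of these data known. HIF target genes outside glycolysis were also mostly lower, with 19 of 21 negative and a median log2 fold change of -0.37. At an unadjusted p under 0.05, 12 of the 21 were lower and 0 higher in edgeR, against 7.93% of all genes tested in each direction. After adjustment edgeR called 0 and DESeq2 called 6 lower, where it called 1.76% of all genes lower. BNIP3, a mitophagy receptor gene, was at 185 and 171 CPM with DMSO and 97.3 and 105 CPM with HJ-4 (log2 fold change of -0.82 ± 0.091 with adjusted p = 0.0857 in edgeR). EGLN1, which encodes the oxygen sensor that marks HIF for degradation, was at 116 and 105 CPM and 68.3 and 66.2 CPM (log2 fold change of -0.72 ± 0.091 with adjusted p = 0.102 in edgeR), and FAM162A at 138 and 142 CPM and 85.1 and 103 CPM. The HIF1A transcript itself was at 113 and 176 CPM with DMSO and 220.5 and 204 CPM with HJ-4, higher in both treated libraries (log2 fold change of 0.55 ± 0.218 with adjusted p = 0.317 in edgeR).

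Of 10 tested regulators of glycolytic genes, edgeR called 1 and DESeq2 2, all lower. Over all genes tested, edgeR called 0.0498% in either direction, and DESeq2 called 1.76% lower and 2.33% higher. The gene edgeR called was ARRDC4, an arrestin-family gene that MondoA activates, at 366 and 377 CPM with DMSO and 59.0 and 68.4 CPM with HJ-4 (log2 fold change of -2.54 ± 0.106 with adjusted p = 0.0318 in edgeR). The genes DESeq2 called were ARRDC4 and MYC. MYC was at 17.5 and 13.3 CPM with DMSO and 4.52 and 8.99 CPM with HJ-4 (log2 fold change -1.19, adjusted p = 0.246 from edgeR, and adjusted p = 0.049 from DESeq2). Both treated libraries were below both controls, but they differed 2-fold from each other.

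The branches off glycolysis held genes of both directions, and their counts by the unadjusted p are to be read against 7.93% of all genes tested in each direction. Their DESeq2 calls are to be read against 1.76% of all genes called lower and 2.33% called higher. The pentose phosphate pathway, which draws on glucose-6-phosphate, had 8 of 10 genes positive with a median of 0.11, and 1 higher and 0 lower by the unadjusted p, a share near that of all genes. That gene was PRPS2, also called higher by DESeq2, a ribose phosphate pyrophosphokinase, at 28.4 and 26.8 CPM with DMSO and 46.8 and 46.0 CPM with HJ-4 (log2 fold change of 0.75 ± 0.094 with adjusted p = 0.102 in edgeR). TKT, the transketolase gene, was at 848 and 723 CPM and 867 and 938 CPM, and PGD at 276 and 258 CPM and 300.0 and 298 CPM. Of 16 glycogen genes 11 were negative with a median of -0.10, against 49.3% of all genes, and 3 were higher and 3 lower by the unadjusted p. DESeq2 called 1 of them higher, PYGB, and 2 lower, GYS1 and GBE1. Glycogen synthase GYS1 was at 105 and 96.8 CPM with DMSO and 61.0 and 72.3 CPM with HJ-4, and the branching enzyme GBE1 at 72.8 and 72.3 CPM and 53.1 and 50.0 CPM, both below the controls in each treated library. The brain glycogen phosphorylase PYGB, which releases glucose phosphate, was at 215 and 195 CPM with DMSO and 299 and 288 CPM with HJ-4, higher in both treated libraries (log2 fold change of 0.52 ± 0.088 with adjusted p = 0.143 in edgeR).

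Beyond pyruvate, the genes of mitochondrial pyruvate entry and of pyruvate dehydrogenase had a median log2 fold change of -0.01 over 13 tested. Of them 1 was higher and 4 lower by the unadjusted p, against 7.93% of all genes in each direction. DESeq2 called 1 lower, PDK3, where it called 1.76% of all genes lower. PDK3, like PDK1 a kinase of pyruvate dehydrogenase, was at 22.0 and 24.3 CPM with DMSO and 13.3 and 13.0 CPM with HJ-4 (log2 fold change of -0.82 ± 0.109 with adjusted p = 0.104 in edgeR). The opposing phosphatase gene PDP2 was at 77.6 and 70.7 CPM and 96.7 and 92.1 CPM, and PDPR, which regulates that phosphatase, at 124 and 123 CPM and 82.7 and 102 CPM. For the tricarboxylic acid cycle 8 of 16 genes were negative with a median of -0.01, and 0 were higher and 1 lower by the unadjusted p, near the share of all genes. DESeq2 called 0. The lower gene was SDHA, at 207 and 208 CPM and 175 and 185 CPM. Of 10 genes of the NADH shuttles 7 were positive with a median of 0.05, and 0 passed an unadjusted p of 0.05 in edgeR or an adjusted one in DESeq2.

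Gluconeogenesis had 5 of 9 genes tested, with 1 higher and 1 lower by the unadjusted p in edgeR, against 7.93% of all genes in each direction. PCK2, the mitochondrial phosphoenolpyruvate carboxykinase, was at 41.3 and 32.0 CPM with DMSO and 50.4 and 50.5 CPM with HJ-4, and the glucose-6-phosphate transporter gene SLC37A4 at 71.0 and 70.0 CPM and 58.1 and 61.2 CPM. The entry routes of fructose, mannose, galactose and hexosamines had a median of -0.02 over 16 genes. There the amidotransferase genes of the hexosamine route differed in direction, with GFPT1 at 184 and 179 CPM with DMSO and 224 and 205 CPM with HJ-4 and GFPT2 at 56.4 and 56.6 CPM and 47.2 and 47.7 CPM. Of 13 other hexose and monocarboxylate transporters tested the median was 0.00. At an unadjusted p under 0.05 in edgeR, 1 was higher, near the 7.93% of all genes tested, and 0 were lower. The higher gene was SLC2A12, at 23.2 and 23.0 CPM with DMSO and 28.7 and 27.1 CPM with HJ-4. Of 15 glycolytic isoenzymes outside the 32, 7 had enough counts to be tested and 0 passed an unadjusted p of 0.05 in edgeR or an adjusted one in DESeq2.

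**Figure D4:**
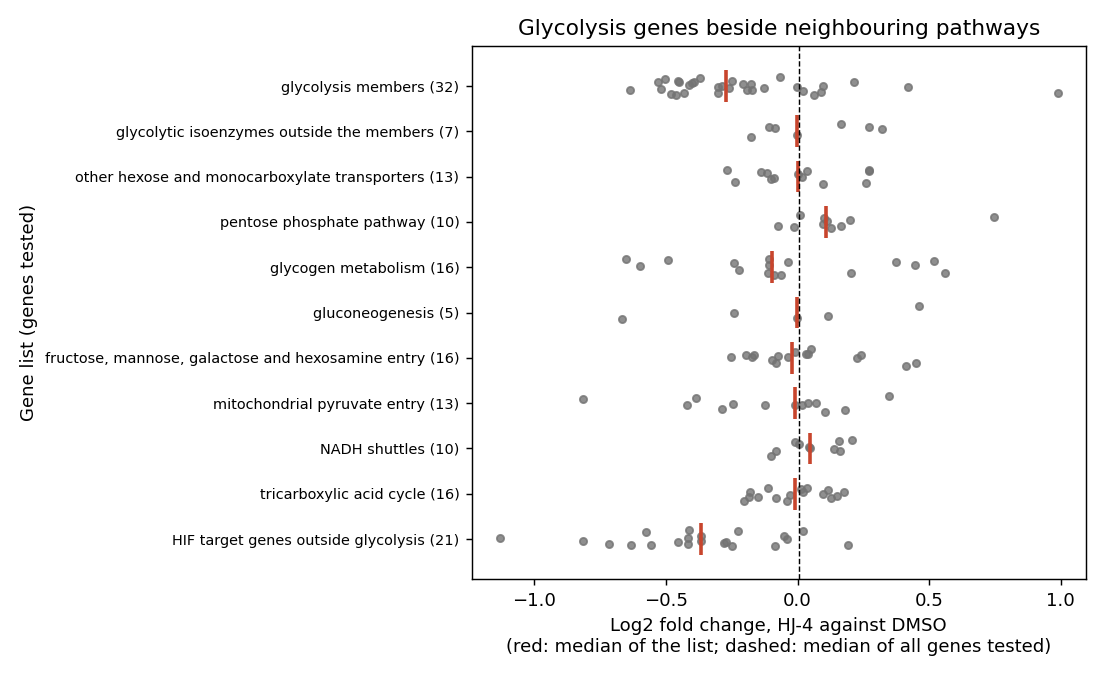
Log2 fold change (HJ-4 over DMSO) per tested gene for the 32 glycolysis and transport genes and for 10 neighboring lists, with the number of genes tested in brackets. Points are genes, red lines list medians and the dashed line the median of all genes tested, and the medians lie at -0.27 for the glycolysis genes, -0.37 for HIF targets outside glycolysis and 0.11 for the pentose phosphate pathway.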

How the data were processed

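RNA of 4 HCT116 libraries, 2 with DMSO and 2 with HJ-4, was analysed from a single table of raw counts that the authors deposited, whole numbers of reads per Ensembl gene ID. The study's methods name STAR, GRCh38 and featureCounts, and HISAT2, bedtools and RSEM stand in the submitters' processing notes. These sources differ on the counter behind the table, and its annotation and strand setting are not given in the sources used here. Reads of overlapping genes, or of near-identical copies, may therefore not be told apart.

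IDs were matched to GENCODE version 44 (20148 of 20263). Genes kept by filterByExpr in edgeR 4.0.16 were scaled by TMM, and the effect of treatment was tested with its quasi-likelihood functions (glmQLFit, glmQLFTest, R 4.3.3), with p-values adjusted by Benjamini-Hochberg over 14044 genes. The study names limma, and edgeR was used because the values are counts. Standard errors were derived from F statistics. TPM was computed from CPM and the summed length of all annotated exons of a gene, which can exceed that of its main transcript. Ranks by TPM, shares and sums per step depend on this choice. The alternatives tried were size factors or the Wald test of DESeq2 1.42.0, limma-voom (limma 3.58.1), total counts, no filter, a mean of at least 5 CPM, each library left out in turn and a replicate block, and TMM without the 32 genes and the mitochondrial genes was added after the data were seen. The edgeR test was also run on simulated counts, with levels and spread taken from the fit to these data. It recovered 63 of 100 planted log2 changes of 1 and 98 of 100 of 2, with 31 false calls in all. The false share of its calls was thus above the 0.05 that the adjustment aims at. Changes smaller than 1 were not planted, and 0 of the 32 genes had a log2 fold change above 1 in size. The 32 genes and the lists were chosen with earlier results of these data known. All 32 genes are named, with full statistics for the 12 of smallest p, and up to 3 genes of smallest p of each list are candidates for naming. Sampling noise alone did not account for the spread within groups, with chi-square per degree of freedom at 37.9 for DMSO and 22.8 for HJ-4.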

Additional observations from a re-analysis of the deposited data

How the results depend on the processing

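The direction and size of the shift in the 32 glycolysis and transport genes kept to a narrow range, while the number of calls did not. Their median log2 fold change was -0.34 to -0.21 when a library was left out, and -0.30 to -0.27 under the other alternatives run. Adjusted calls among the 32 were 0 under every alternative except DESeq2's Wald test, which called 11, and 0 with any library left out. Genes lower at an unadjusted p under 0.05 numbered 6 to 17 with a library left out (6 without HJ-4 replicate 1) and 14 with the replicate block, and genes higher at that p 0 to 3 with a library left out, 1 with the filter at a mean of 5 CPM, which drops HKDC1, and 1 with DESeq2. Calls over all genes were 7, 0 to 88 with a library left out (88 without DMSO replicate 1, 34 without DMSO replicate 2, 0 without either HJ-4 library), 31 with the replicate block, 12 without a filter and 574 with DESeq2. With 1 library in a group, that library is assumed to vary like the other group. The labels do not say whether same-numbered libraries were paired. The correlation of same-numbered differences was -0.043, which cannot decide this, since it only measures whether the replicates of both groups differ in the same genes.

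Among the 32 genes the direction turned only for 4 with fold changes near 0. With a library left out SLC2A3 ran from -0.026 (without HJ-4 replicate 1) to 0.064, and it was at -0.009 with total counts. ADPGK was at 0.003 with the replicate block and with limma-voom, and from -0.126 to 0.132 with a library left out. Likewise PGM2 ran from -0.118 (without DMSO replicate 1) to 0.328 and BPGM from -0.157 to 0.015 (without HJ-4 replicate 1). The cause of these changes was not tested.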
